A study of Mus musculus with 5 samples.

Results

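Hmga1, Hmga2, Lin28a, Lin28b, Igf2bp1, Igf2bp2 and Igf2bp3 are oncofetal genes: they are active in the embryo, largely silent in most adult tissues, and active again in many cancers. They were taken by symbol, 7 of the 55276 rows of the deposited table, and were chosen with their tumor and lung values in view, so those values are given as a description with no test. RNA was sequenced from cells labelled as sorted polymorphonuclear myeloid-derived suppressor cells (PMN-MDSCs), neutrophil-lineage cells that restrain T cells in tumor-bearing hosts. There were 2 tumor libraries (replicates 2 and 3) and 3 lung libraries (replicates 1, 2 and 3), all from wild-type mouse primary cells, each from 2000000 sorted cells or more. The labels do not state the tumor model, the strain, the age, the sort markers or separate animals. Values are TPM, a length-corrected share of each library that adds up to 1000000. The labels state 20M paired reads per library. TPM does not tell how many reads lie behind a gene's value, so precision comes from the spread between libraries alone.

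The 3 families act on chromatin and on mRNA. HMGA proteins are small architectural proteins that bind the minor groove of AT-rich DNA and shape chromatin. LIN28 proteins bind the precursors of the let-7 microRNAs and block their maturation. IGF2BP proteins bind mRNAs, among them that of the growth factor Igf2, and affect their stability, location and translation. Mature let-7 in turn represses mRNAs that carry matching sites in their 3′ untranslated region (3′ UTR), and Hmga2, Lin28a, Lin28b and the Igf2bp mRNAs are textbook let-7 targets.

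All 7 mRNAs hold at least 1 match to the let-7 seed. The seed is bases 2 to 8 of the mature microRNA, and it is in capitals in these mature mouse sequences from RefSeq (GRCm38.p6), shown because 10 of the 11 let-7 and miR-98 names found there share it.
let-7a-5p: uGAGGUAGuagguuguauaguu
let-7d-5p: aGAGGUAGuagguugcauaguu
let-7g-5p: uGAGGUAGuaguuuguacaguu
miR-98-5p: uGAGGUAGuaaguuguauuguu
The 11th name, let-7j, has another seed.

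The reverse complement of the shared seed, CTACCTC, was searched on the sense strand of the longest annotated 3′ UTR of each gene (GENCODE M21, GRCm38). Of 21027 genes with a 3′ UTR, 9.02% hold at least 1 match. One site of each gene, all 4 of Hmga2, is shown 5′ to 3′ with the match in capitals, including a final A where one follows, the base that makes the longer form of the match. The base at which each Hmga2 match begins is counted from 1 at the start of the 3′ UTR.
Hmga1: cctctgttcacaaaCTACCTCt
Hmga2 site at base 58: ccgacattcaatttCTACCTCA
Hmga2 site at base 1295: cccactcctcaataCTACCTCt
Hmga2 site at base 1733: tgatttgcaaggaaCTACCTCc
Hmga2 site at base 2591: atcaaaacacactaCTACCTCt
Lin28a: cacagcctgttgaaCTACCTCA
Lin28b: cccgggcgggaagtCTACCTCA
Igf2bp1: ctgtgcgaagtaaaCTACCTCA
Igf2bp2: cacacaaataaaagCTACCTCA
Igf2bp3: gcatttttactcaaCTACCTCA
The Hmga1 site lies at chr17:27563278-27563299 on the plus strand. The 4 Hmga2 sites lie on the minus strand at chr10:120364224-120364245, chr10:120362987-120363008, chr10:120362549-120362570 and chr10:120361691-120361712. The printed sites of the other genes are on the minus strand at chr4:134005189-134005210 for Lin28a, chr10:45381022-45381043 for Lin28b, chr11:95961778-95961799 for Igf2bp1, chr16:22059473-22059494 for Igf2bp2 and chr6:49086787-49086808 for Igf2bp3.

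The 7 genes differ in how many such matches they hold. Hmga2 (3014 bases of 3′ UTR), Lin28b (4445 bases) and Igf2bp1 (6337 bases) hold 4 each, and 12 genes, 0.0571% of those searched, hold at least 4. Lin28a holds 2 in 2775 bases, and Hmga1, Igf2bp2 and Igf2bp3 hold 1 each in 1183, 1784 and 2119 bases. Long 3′ UTRs hold more matches by length alone. Among 3′ UTRs within 10% of its own length, 0.180% of 1114 held at least as many matches as Hmga2, 0.494% of 607 as many as Lin28b, and 14.3% of 1381 as many as Igf2bp3. Each gene is itself counted in its share, so the smallest shares rest on few other genes. Lin28a, which ran opposite to the other genes between tumor and lung, shares the motif with them. A match describes letters and does not show that let-7 binds there.

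The tumor and lung libraries differed far beyond these genes, and the tumor libraries did not carry the marker profile of their label. The summed TPM of 14 neutrophil markers was 1149 and 3907 in tumor libraries, against 37124 to 62972 in lung libraries. The sum of 12 pan-leukocyte genes was 759 and 1987 in tumor libraries, against 11844 to 12973 in lung libraries, with 12 of 12 called lower. The sum of 12 epithelial markers was 6598 and 6622 in tumor libraries, against 58.3 to 120 in lung libraries, with 10 of 11 tested called higher. Fibroblast markers summed to 1270 and 232 in tumor libraries and 25.8 to 33.2 in lung libraries, with 6 of 10 called higher and Col3a1 and Col1a1 the largest parts of the tumor sums. All 10 of 10 proliferation genes were called higher. Lung epithelium markers summed to 11.9 and 23.2 in tumor libraries and 248 to 692 in lung libraries, with 7 of 8 called lower. Of these, Sftpa1 and Scgb3a2 were listed at 0 in both tumor libraries, while Sftpd stood at 6.87 and 13.9 TPM in tumor libraries and 6.29, 2.14 and 1.53 TPM in lung libraries. Lymphoid markers summed to 5.03 and 9.40 in tumor libraries and 124 to 284 in lung libraries, with 4 of 6 tested called lower. Endothelial markers summed to 18.8 and 34.3 in tumor libraries and 204 to 368 in lung libraries, with 8 of 8 called lower. Of 10 macrophage markers, 5 were called higher and 4 lower. The part of these cell types in the levels below was not tested, and in bulk samples fewer cells of a type and less RNA per cell cannot be told apart. Values were therefore also centred on the mean of the 12 pan-leukocyte genes, an alternative added after seeing the data and called leukocyte centring below, under which the median difference of all tested genes was 3.32 on the log2 scale. The mean of those 12 genes fell by 3.31, and the centring adds that same amount to the difference of every gene, so any smaller fall turns sign by construction.

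Calls across all genes came from limma on log2(TPM + 1), at a Benjamini-Hochberg adjusted p under 0.05 and at least 1.5-fold. Of 16387 genes averaging 1 TPM or more, 58.6% were called, 31.6% (5178) higher and 27.0% (4431) lower in tumor, with a median difference of 0.02. Under leukocyte centring 13541 were called higher and 122 lower. Of the 7 genes, 6 had both tumor libraries above all lung libraries, a pattern shown by 39.9% of the tested genes. The remaining 1, Lin28a, had both below, as did 35.7%, and groups did not overlap in 75.6% of the tested genes. Because the genes were chosen on this contrast, nothing is read from those counts.

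**Figure D1:**
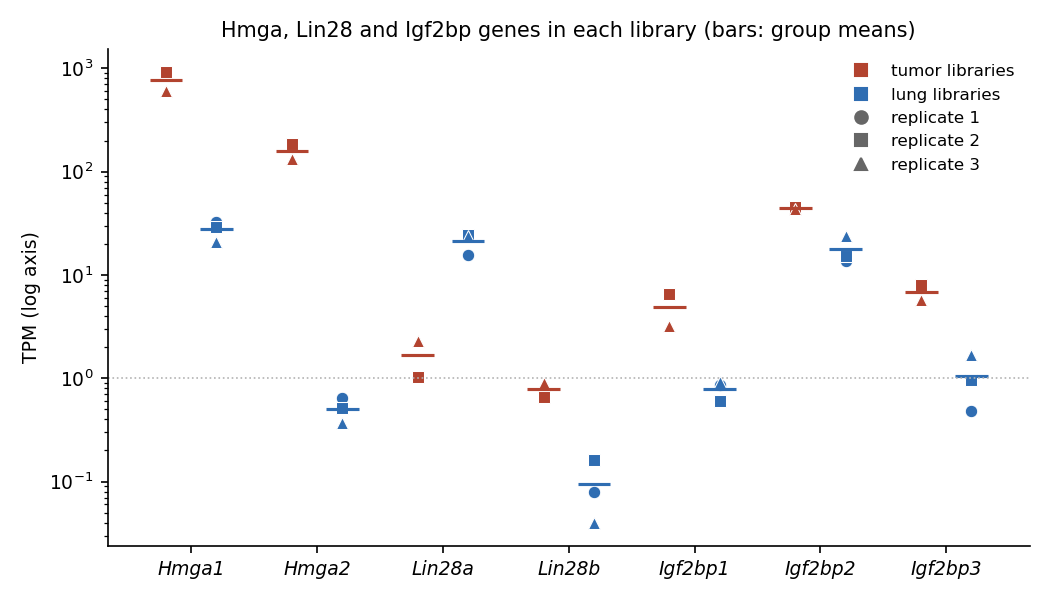
TPM on a log axis for the 7 genes in 2 tumor libraries (red, left of each pair) and 3 lung libraries (blue), with symbols for replicate numbers, bars for group means and a dotted line at 1 TPM. Tumor points lie above lung points for 6 genes and below them for Lin28a, a direction that becomes 0.23 (log2) in favour of tumor under leukocyte centring. That centring was run only on log2(TPM + 1).

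Hmga2, the fetal HMGA protein that marks dividing stem and mesenchymal cells of the embryo, showed the widest separation of the 7 genes. It was measured at 187 and 133 TPM in tumor libraries, against 0.641, 0.518 and 0.365 TPM in lung libraries. Both tumor libraries placed it among their abundant transcripts, at ranks 554 and 770, while all 3 lung libraries held it below 1 TPM. The means were 160 ± 38.1 TPM (SD, n = 2) in tumor and 0.508 ± 0.138 TPM (SD, n = 3) in lung, a 314-fold ratio and a difference of 6.72 in log2(TPM + 1). With a pseudocount of 0.01 the difference was 8.28, since adding 1 compresses the lung values. The gene spans chr10:120361275-120476469 on the minus strand. The microRNA gene Mir763, which lies within it on the same strand, was listed at 37.7 and 25.9 TPM in tumor libraries, against 0, 0 and 8.91 TPM in lung libraries. Such short genes have uncertain TPM, and reads of the Hmga2 transcript and of Mir763 may not be separable there.

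Hmga1, the more widely expressed HMGA gene, was the most abundant of the 7 in both tumor libraries. It was measured at 925 and 602 TPM in tumor libraries, against 32.4, 29.4 and 20.8 TPM in lung libraries. It ranked 123 and 165 among all genes of the tumor libraries, and the lowest tumor library stood far above the highest lung library. The means were 764 ± 229 TPM (SD, n = 2) in tumor and 27.6 ± 6.02 TPM (SD, n = 3) in lung, a 27.7-fold ratio and a log2 difference of 4.73. The gene spans chr17:27556497-27563674 on the plus strand, and 62.1% of its 31-base stretches (1479 of 2382) also occur in Hmga1b, a near-copy at chr11:120762794-120764419. How reads were divided between them is therefore uncertain. Hmga1b was listed at 1.17 and 0.517 TPM in tumor libraries and 0, 0.625 and 9.43 TPM in lung libraries, so its own row overlapped between groups.

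The balance within the HMGA pair also differed. Hmga2 made up 16.8% and 18.1% of the summed pair in tumor libraries, against 1.94%, 1.73% and 1.72% in lung libraries. A ratio within a library does not depend on how that library is scaled, so this separation holds under any centring. The pair together reached 1112 and 735 TPM in tumor libraries, against 33.1, 29.9 and 21.2 TPM in lung libraries.

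Lin28a, the cytoplasmic LIN28 protein that recruits a uridylating enzyme to let-7 precursors, was the one gene lower in tumor, except under leukocyte centring. It was measured at 1.03 and 2.32 TPM in tumor libraries, against 15.6, 24.5 and 23.7 TPM in lung libraries. No library of one group reached the range of the other. The means were 1.67 ± 0.913 TPM (SD, n = 2) in tumor and 21.3 ± 4.90 TPM (SD, n = 3) in lung, a 12.7-fold lower mean in tumor and a log2 difference of -3.07. The 12 pan-leukocyte genes were lower in tumor as well, and their part in the Lin28a level was not tested. The TPM of Lin28a was 5.57% and 3.08% of that of Ptprc, the pan-leukocyte surface phosphatase CD45, in tumor libraries, against 1.86%, 2.64% and 2.47% in lung libraries, so both tumor libraries stood above all lung libraries on that ratio. Ptprc had the largest fall of the 12 genes, with a mean 19.4-fold lower in tumor, against 4.21-fold for Cd53, the smallest. The 12.7-fold fall of Lin28a lies between them, so the side of such a ratio depends on the gene chosen. Under leukocyte centring its difference was 0.23, with the sign turned. That centring was run only with a pseudocount of 1, where the mean difference of the 12 genes was -3.31. Uncentred, the Lin28a difference was -3.66 with a pseudocount of 0.1 and -3.74 with 0.01. The turned sign may therefore depend on the pseudocount, which was not tested. The gene spans chr4:134003330-134018841 on the minus strand and shares no 31-base stretch with any other gene.

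Lin28b, the paralog that is mainly an embryonic and fetal protein, was the least abundant of the 7 genes in every library. It was measured at 0.658 and 0.908 TPM in tumor libraries, against 0.0797, 0.162 and 0.0396 TPM in lung libraries. Both tumor libraries stood above all lung libraries, although no library reached 1 TPM, and Lin28b was the 1 gene of the 7 that did not pass the filter on low values. The ratio of the means was 8.35 and the log2(TPM + 1) difference 0.70, which became 3.10 with a pseudocount of 0.01. TPM does not show how many reads support these low values.

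The LIN28 pair was thus composed differently in the groups. Lin28b made up 39.0% and 28.1% of the pair in tumor libraries, against 0.507%, 0.657% and 0.167% in lung libraries. The pair summed to 1.69 and 3.23 TPM in tumor libraries, against 15.7, 24.7 and 23.7 TPM in lung libraries, a direction set by Lin28a. Leukocyte centring, which moves both by the same amount, gave 0.23 for Lin28a and 4.01 for Lin28b.

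Igf2bp2, the family member most widely kept in adult tissue, was the most abundant IGF2BP gene in every library. It was measured at 45.5 and 43.2 TPM in tumor libraries, against 13.6, 15.3 and 24.1 TPM in lung libraries. The tumor libraries were close to each other, and lung replicate 3 stood nearest to them. The means were 44.3 ± 1.63 TPM (SD, n = 2) in tumor and 17.7 ± 5.60 TPM (SD, n = 3) in lung, a 2.51-fold ratio, the smallest of the 6 that were higher in tumor.

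Igf2bp1 and Igf2bp3, the oncofetal members in the narrower sense, were low in both groups and higher in tumor. Igf2bp1, which binds Myc and H19 transcripts among others, was measured at 6.49 and 3.21 TPM in tumor libraries, against 0.854, 0.598 and 0.925 TPM in lung libraries. Igf2bp3 was measured at 7.94 and 5.69 TPM in tumor libraries, against 0.480, 0.970 and 1.70 TPM in lung libraries. Neither gene overlapped between groups, and the tumor libraries differed 2.02-fold from each other for Igf2bp1. The ratio of means was 6.12 for Igf2bp1 and 6.50 for Igf2bp3, with log2 differences of 1.65 and 1.96. Leaving out one tumor library at a time moved the Igf2bp1 difference between 1.24 and 2.07. Igf2bp3 overlaps Malsu1 on the opposite strand by 1529 bases. Whether counting used strand is not given in the sources used here, and Malsu1 stood at 17.2 and 11.2 TPM in tumor libraries and 14.4, 14.8 and 9.80 TPM in lung libraries.

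Within the IGF2BP trio, Igf2bp2 accounted for 75.9% and 82.9% of the sum in tumor libraries, against 91.1%, 90.7% and 90.2% in lung libraries. Igf2bp1 spans chr11:95957163-96005940, Igf2bp2 spans chr16:22059009-22163299 and Igf2bp3 spans chr6:49085223-49214957, all on the minus strand. Apart from Hmga1, the genes share 0 to 2.26% of their 31-base stretches with other genes.

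The order of the levels, in TPM, was the same in both tumor libraries: Hmga1, Hmga2, Igf2bp2, Igf2bp3, Igf2bp1, Lin28a and Lin28b. Igf2bp3 and Igf2bp1 overlapped across the tumor libraries and are not separated by their spread. In lung libraries Hmga1, Lin28a and Igf2bp2 took the first 3 places with overlapping ranges, and Igf2bp2 was first in replicate 3. Igf2bp3, Igf2bp1 and Hmga2 followed with overlapping ranges between 0.365 and 1.70 TPM, and Lin28b was last in every lung library. All 7 genes together summed to 1174 and 790 TPM in tumor libraries, against 63.8, 71.5 and 71.6 TPM in lung libraries.

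**Figure D2:**
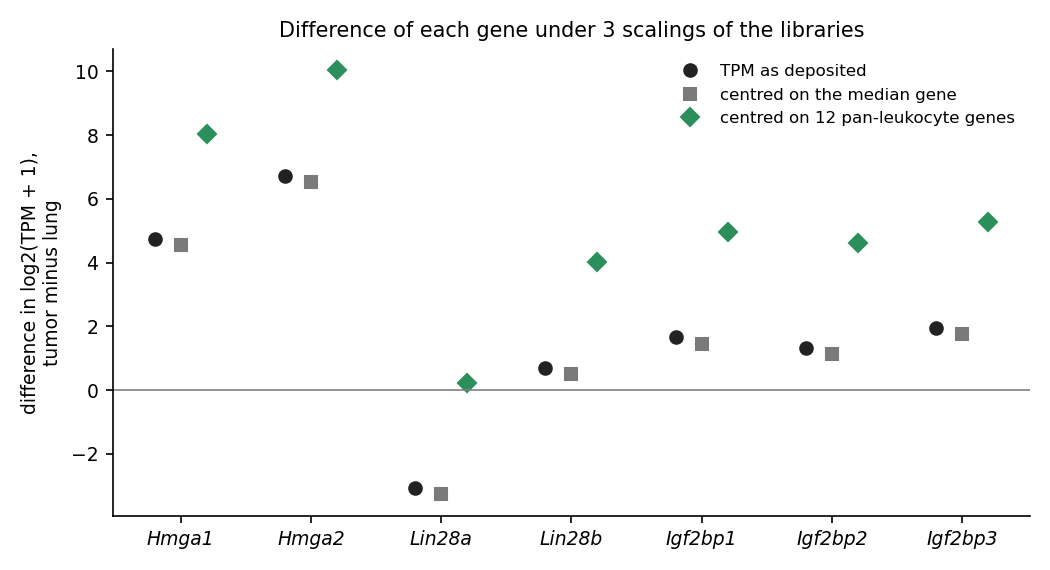
Difference in log2(TPM + 1), tumor minus lung, for the 7 genes with TPM as deposited (circles), centred on the median gene (squares) and centred on 12 pan-leukocyte genes (diamonds), with a line at 0. The other genes stay above 0 under all 3 scalings, while Lin28a stands at -3.07 as deposited and at 0.23 under leukocyte centring. Leukocyte centring was not run with a smaller pseudocount.

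The genes most like each of the 6 with a mean over 1 TPM, Lin28b being left out for its low level, by the smallest Euclidean distance in log2(TPM + 1) over the 5 libraries, are given as a description. For Hmga2 they were Tnnt2 (distance 0.53), Tph1 (0.73) and Cdkn2a (0.76), each over 100 TPM in both tumor libraries and, Cdkn2a in lung replicate 1 apart, under 1 TPM in lung libraries. For Hmga1 they were Spp1 (0.75), Ecm1 (1.15) and Emp1 (1.18). Spp1 encodes the secreted protein osteopontin and stood at 1112 and 471 TPM in tumor libraries, against 21.4, 26.3 and 20.96 TPM in lung libraries. For Lin28a they were Satb1 (0.34), Susd3 (0.37) and Ly9 (0.41). Satb1, a chromatin organizer of lymphoid cells, and Ly9, a leukocyte surface receptor, were both under 3 TPM in tumor libraries and over 16 TPM in lung libraries. For Igf2bp1 they were Fkbp14, P3h3 and Tfap4 (0.28 to 0.32), for Igf2bp2 Sdf2, Hspa4l and Copg1 (0.40 to 0.43), and for Igf2bp3 Cdca5, Osmr and Wdr35 (0.34 to 0.47).

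The genes that make, mark and destroy let-7 split in both directions. Of 26 tested genes of let-7 processing and turnover, 10 rose and 9 fell, against 31.6% and 27.0% of all tested genes, with a median difference of 0.00 beside 0.02 over all genes. Under leukocyte centring 22 rose and 0 fell. Of these 26 genes, 12 were called with the replicate number as a block and 10 without tumor replicate 2.

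Drosha, the nuclear enzyme that cuts primary microRNA transcripts, rose. It stood at 20.5 and 20.2 TPM in tumor libraries, against 2.90, 1.91 and 3.58 TPM in lung libraries, with no overlap (difference 2.51 ± 0.25 SE, limma with Benjamini-Hochberg, adjusted p = 0.00166). Dicer1, which makes the final cut of let-7 precursors, was not called, at 9.80 and 10.9 TPM in tumor libraries and 9.72, 7.92 and 12.3 TPM in lung libraries (limma adjusted p = 0.826).

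Tut4 and Tut7, the uridylyltransferases that tag let-7 precursors, fell, except under leukocyte centring. Tut4 stood at 6.47 and 5.23 TPM in tumor libraries, against 34.1, 36.9 and 32.3 TPM in lung libraries (difference -2.37, limma adjusted p = 0.0011). Tut7 stood at 41.8 and 56.6 TPM in tumor libraries, against 187, 221 and 213 TPM in lung libraries (difference -2.06, limma adjusted p = 0.00153). Trim25, a ubiquitin ligase that assists this tagging, fell by 2.01, and Tnrc6b, a scaffold of microRNA silencing complexes, fell by 2.65. Under leukocyte centring the differences were 0.93 for Tut4, 1.24 for Tut7, 1.30 for Trim25 and 0.66 for Tnrc6b. Dis3l2, the exonuclease that degrades tagged precursors, rose to 4.62 and 3.95 TPM in tumor libraries, against 1.85, 1.44 and 1.97 TPM in lung libraries (limma adjusted p = 0.0175). That call was lost without tumor replicate 2 (difference 0.85), with the replicate number as a block (limma adjusted p = 0.0846) and at a fold limit of 2.

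**Figure D3:**
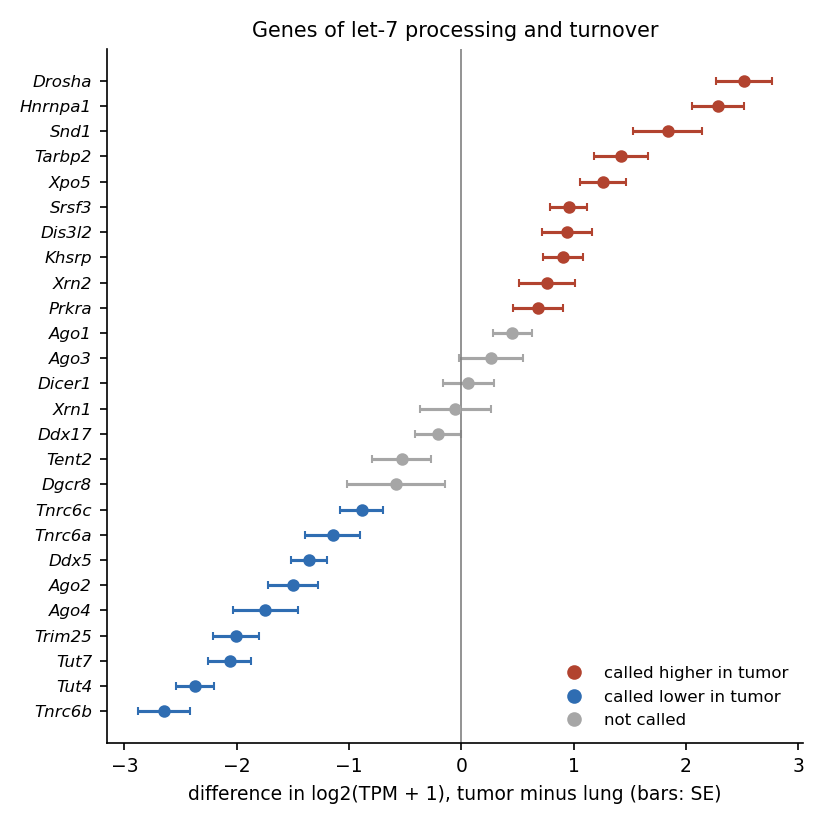
Difference in log2(TPM + 1), tumor minus lung, for 26 tested genes of let-7 processing and turnover, with SE bars and colours for limma calls. Drosha is at the top at 2.51 and Tnrc6b at the bottom at -2.65, but under leukocyte centring 22 rose and 0 fell.

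Mature let-7 was not measured. Of 12 let-7 and miR-98 hairpin genes in the table, 10 were listed at 0 in all libraries. Mirlet7f-2 was above 0 in lung replicate 2 alone, at 12.5 TPM, and Mirlet7g in lung replicate 3 alone, at 31.9 TPM. The rows of these short hairpin genes therefore give no level of let-7 in either group.

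Known let-7 targets other than the 7 genes moved both ways. Of 34 tested, 13 rose (38.2%) and 10 fell (29.4%), near the 31.6% and 27.0% of all tested genes, with a median of 0.55 beside 0.02 over all genes, and under leukocyte centring 31 rose and 0 fell. The cyclin Ccnd1 stood at 269 and 206 TPM in tumor libraries, against 9.56, 7.003 and 7.20 TPM in lung libraries (difference 4.74, limma adjusted p = 0.000901). Its partner kinase Cdk6 rose by 3.22, the creatine synthesis enzyme Gatm by 3.40 and the S-phase cyclin Ccna2 by 3.19. Genes of the list that fell, named after their values were seen, included the death receptor Fas (-3.41) and the transcription factors Arid3a (-2.96), Arid3b (-2.47) and E2f2 (-1.53), and none of them was called lower under leukocyte centring. Myc stood at 15.4 and 10.8 TPM in tumor libraries and 4.74, 2.62 and 5.82 TPM in lung libraries (limma adjusted p = 0.0188), a call lost without tumor replicate 2 (adjusted p = 0.148), tumor replicate 3 (0.0704) or lung replicate 1 (0.0574), and with the replicate number as a block (0.102). Trim71, a fetal let-7 target, was under 0.2 TPM in every library and was not tested.

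Genes that hold the let-7 match were also counted as a class. Without the 7 genes, 1239 tested genes held at least 1 match, of which 33.4% rose and 29.3% fell (median 0.07). Of 10862 tested genes with a 3′ UTR and no match, 40.6% rose and 24.8% fell (median 0.41). Of 150 with at least 2 matches, 42 rose and 55 fell (median -0.12). The classes also differ in 3′ UTR length, and no difference between them was tested. In the list of known targets, 25 of 38 held the match in the longest 3′ UTR. Ccnd1, Cdk6, Ccna2 and Myc held 0 there, Gatm, Fas and Arid3b 1 each, and Arid3a and E2f2 2 each.

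mRNAs reported to be bound by IGF2BP proteins were mostly called higher. Of 21 tested, 17 rose and 4 fell, against 31.6% and 27.0% of all tested genes, with a median of 1.62 beside 0.02 over all genes. Without tumor replicate 2, 13 were called, and under leukocyte centring 20 rose and 0 fell. H19, an imprinted fetal long noncoding RNA, stood at 87.1 and 63.0 TPM in tumor libraries, against 0.721, 2.87 and 0.548 TPM in lung libraries (difference 5.11 ± 0.46 SE, limma adjusted p = 0.00147). Igf2, the fetal growth factor at the same imprinted locus and the transcript that names the family, stood at 11.9 and 8.52 TPM in tumor libraries, against 0.788, 3.08 and 0.693 TPM in lung libraries (difference 2.26, limma adjusted p = 0.0113). The Igf2 call was lost without tumor replicate 2 (adjusted p = 0.0979), tumor replicate 3 (0.0606) or lung replicate 3 (0.052). Birc5, the mitotic protein survivin, rose by 3.60. Mki67 stands both in this list and among the proliferation markers.

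Genes linked to HMGA proteins included the highest rise of the lists. Of 14 tested, 9 rose and 2 fell, against 31.6% and 27.0% of all tested genes, with a median of 1.64 beside 0.02 over all genes, and under leukocyte centring 14 rose and 0 fell. Cdkn2a, the locus of the cell cycle inhibitors p16Ink4a and p19Arf that Hmga2 represses in mouse neural stem cells, stood at 233 and 170 TPM in tumor libraries, against 1.13, 0.171 and 0.633 TPM in lung libraries (difference 6.97, limma adjusted p = 0.000901). The neighbouring inhibitor Cdkn2b rose by 4.83. The mesenchymal transcription factor Twist1 stood at 16.0 and 9.04 TPM in tumor libraries, against 0.0327, 0.150 and 0.0651 TPM in lung libraries (difference 3.60, limma adjusted p = 0.00141). Fibroblast markers were also higher in the tumor libraries, most of all in tumor replicate 2, and their part in the Twist1 level was not tested.

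Other high mobility group genes did not all follow Hmga1 and Hmga2. Of 13 tested, 7 rose and 3 fell, against 31.6% and 27.0% of all tested genes, with a median of 0.95 beside 0.02 over all genes, and under leukocyte centring 13 rose and 0 fell. Hmgn3 and Hmgb3 rose by 3.42 and 2.52, and Ssrp1, a subunit of the histone chaperone FACT, rose by 1.97. Hmgb2, a DNA-bending protein of dividing cells, stood at 206 and 186 TPM in tumor libraries, against 431, 444 and 410 TPM in lung libraries (difference -1.12, limma adjusted p = 0.00263). Hmgn2 fell by 1.40. Under leukocyte centring the difference was 2.18 for Hmgb2 and 1.91 for Hmgn2.

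Of 15 tested genes of the insulin-like growth factor axis, 7 rose and 4 fell, with a median of 1.53 beside 0.02 over all genes. These are 46.7% and 26.7%, against 31.6% and 27.0% of all tested genes. Without tumor replicate 2, 7 were called, with a filter of 5 TPM 7 of the 8 genes still tested, and under leukocyte centring 14 rose and 0 fell. The receptor Igf1r fell, at 19.2 and 23.9 TPM in tumor libraries, against 48.9, 80.1 and 81.7 TPM in lung libraries (limma adjusted p = 0.00673), a call lost without tumor replicate 2 (adjusted p = 0.0645). Igf2r, which clears IGF2, stood at 45.1 and 31.4 TPM in tumor libraries, against 9.56, 9.25 and 19.2 TPM in lung libraries (limma adjusted p = 0.0182), a call lost when either tumor replicate or lung replicate 1 or 2 was left out (adjusted p of 0.0654 to 0.139) and with the replicate number as a block (0.115). The adaptor Irs1 rose by 2.88. The binding proteins Igfbp3 and Igfbp7 rose by 6.28 and 4.61, and Igfbp3 differed between tumor libraries, at 242 and 68.3 TPM, against 0.624, 0.679 and 0.723 TPM in lung libraries. Igfbp6 fell by 2.62. Under leukocyte centring the difference was 1.67 for Igf1r and 0.68 for Igfbp6.

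IGF2BP proteins read N6-methyladenosine, and the genes that write, erase and read this mark were counted in the same way. Of 20 tested, 4 rose, 4 fell and 12 were not called, against 31.6% higher and 27.0% lower of all tested genes, with a median of -0.23 beside 0.02 over all genes. The split was 3 and 6 when centred on the median gene, 5 and 3 without mitochondrially encoded genes, and 20 and 0 under leukocyte centring, and 4 in all were called at a fold limit of 2, with the replicate number as a block or without tumor replicate 2. The demethylase Fto stood at 29.2 and 27.3 TPM in tumor libraries, against 6.73, 3.86 and 6.46 TPM in lung libraries (difference 2.16, limma adjusted p = 0.00245). The methyltransferase Mettl16 rose by 1.72, a call lost without tumor replicate 2 (limma adjusted p = 0.0601) and with the block (0.0529). The writer subunit Zc3h13 fell by 1.29 and the reader Ythdf3 by 1.18, with differences of 2.02 and 2.13 under leukocyte centring. The catalytic writer Mettl3 was not called, at 9.29 and 8.57 TPM in tumor libraries and 10.8, 21.5 and 12.5 TPM in lung libraries (limma adjusted p = 0.147).

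Other oncofetal and stem cell genes were detected unevenly. Of 28 listed, 17 were tested, 11 rose and 2 fell, against 31.6% and 27.0% of all tested genes, with a median of 1.70 beside 0.02 over all genes. With a filter of 5 TPM 8 of the 8 genes still tested were called, and under leukocyte centring 16 rose and 0 fell. The transcription factor Sox4 rose by 3.71, and Sox2, a pluripotency and epithelial stem cell factor, stood at 20.4 and 12.3 TPM in tumor libraries, against 1.10, 0.171 and 0.174 TPM in lung libraries (difference 3.56, limma adjusted p = 0.00202). Prom1, the surface protein CD133, rose by 3.13. The 2 genes that fell, named after their values were seen, were Gpc3 (-1.66) and Cd24a (-1.30), and neither was called lower under leukocyte centring. The pluripotency genes Nanog and Sall4 were under 0.5 TPM in every library and the fetal liver protein Afp was under 0.7 TPM, so these 3, named after their values were seen, were not tested. In all, 146 genes of the 8 lists were tested, of which 70 rose and 36 fell, against 31.6% and 27.0% of all tested genes, and 14 of the 177 listed genes stand in more than 1 list.

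**Figure D4:**
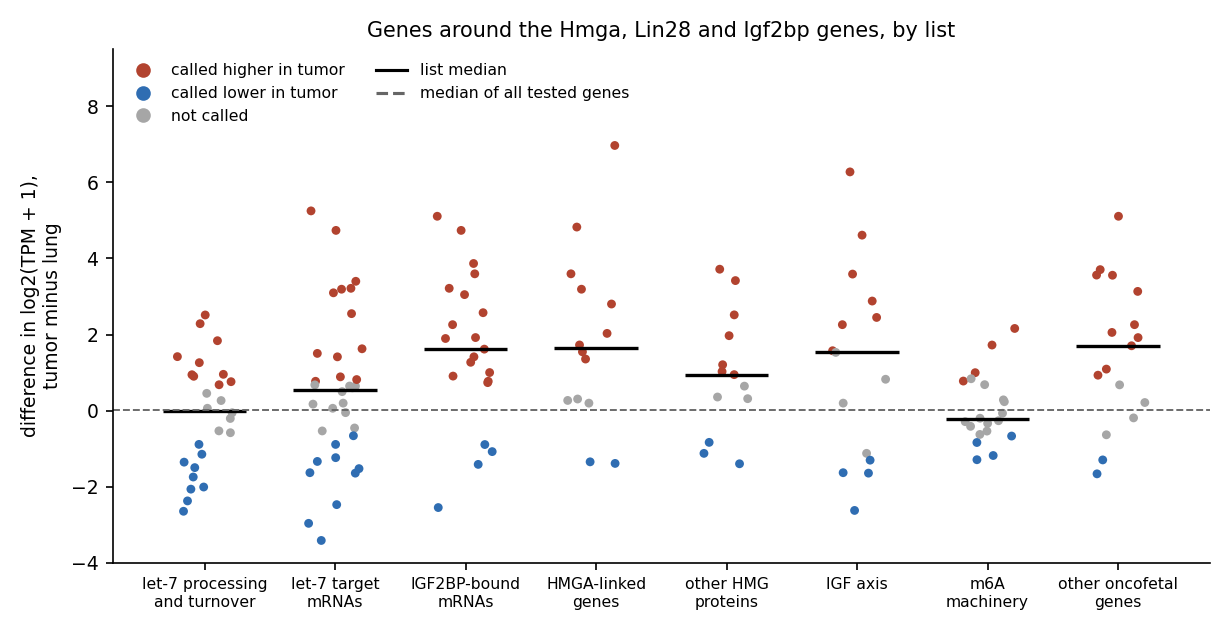
Difference in log2(TPM + 1), tumor minus lung, for each tested gene of the 8 lists (red called higher, blue called lower, grey not called), with list medians as black bars and the median of all tested genes dashed. The medians run from -0.23 for the N6-methyladenosine genes to 1.70 for the other oncofetal genes, and under leukocyte centring no gene of these lists was called lower.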

How the data were processed

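RNA was sequenced from 2 tumor and 3 lung libraries. The authors deposited TPM made with Salmon 0.9.1 on GENCODE mouse M24 transcripts, per the labels' design text. Salmon assigns reads shared by alike transcripts by inference, so near-copies and very short genes are uncertain, and TPM is a share, so a rise in some transcripts lowers others. The 26 rows with spreadsheet dates for symbols were left out, and the authors' own comparison was not used here. Groups came from the treatment label and replicate numbers from the titles. Separate animals are nowhere stated, and p-values then measure only how these libraries vary, which may be technical. The smallest exact permutation p for 2 against 3 libraries is 0.1.

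Two-sided limma 3.58.1 (R 4.3.3, intensity trend) was run on log2(TPM + 1) of genes averaging 1 TPM or more, adjusted by Benjamini-Hochberg over all 16387. The scale understates changes of low genes, and a fold is the ratio of group means. The script was tested on simulated data. The members, the lists and the rule for named genes were chosen with earlier results of these data known. The rule names up to 4 called genes with the smallest p in each list that reach 5 TPM in the higher group, a set list of pathway genes, and the 3 nearest genes to each member, predicted genes and pseudogenes passed over. Marker genes and near-copies were named after their values were seen. Lists were described by counts and medians. Coordinates, 3′ UTRs and shared 31-base stretches came from GENCODE M21 (GRCm38), since M24 was not used here.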

Additional observations from a re-analysis of the deposited data

How the results depend on the processing

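Under 17 alternatives the 37 named list genes gave 626 comparisons. Of these, 596 kept their side of the threshold, 18 lost the call, 2 gained it and 10 turned direction, all 10 under leukocyte centring. Turns were counted only for genes called with the main settings, so not for Dicer1 or Mettl3. Mettl3 went from -0.63 to 2.68 under leukocyte centring. That centring adds the same amount to every gene, so its turned signs follow by construction, and the cause of the other changes was not tested. Leukocyte centring turned Lin28a to 0.23, Hmgb2 2.18, Hmgn2 1.91, Igf1r 1.67, Igfbp6 0.68, Tnrc6b 0.66, Trim25 1.30, Tut4 0.93, Tut7 1.24, Ythdf3 2.13 and Zc3h13 2.02. It moved Hmga1 to 8.04, Hmga2 to 10.03, Lin28b to 4.01, Igf2bp1 to 4.96, Igf2bp2 to 4.62 and Igf2bp3 to 5.27, called 13541 genes higher and 122 lower, called all 20 N6-methyladenosine genes, and called Dicer1 (3.37) and Mettl3 (2.68). With pseudocounts of 0.1 and 0.01 the differences were 8.04 and 8.28 for Hmga2, -3.66 and -3.74 for Lin28a, 2.22 and 3.10 for Lin28b, 2.41 and 2.54 for Igf2bp1, and 2.72 and 2.85 for Igf2bp3. Leukocyte centring was not run with these pseudocounts. Centring on the median gene gave 0.51 for Lin28b and shifted the median of all genes to -0.18. A filter of 5 TPM left 8 tested genes in the insulin-like growth factor axis, with 7 calls, and 8 among other oncofetal genes, with 8 calls, so fewer genes were tested, and a fold limit of 2 left 4 N6-methyladenosine calls and dropped Dis3l2. Leaving out one library at a time gave 6285 to 8848 calls over all genes, 2831 to 4179 of them lower. The ranges were 10 to 18 for let-7 processing, 13 to 21 for IGF2BP-bound mRNAs, 7 to 11 for the insulin-like growth factor axis and 4 to 8 for the N6-methyladenosine genes, each lowest without tumor replicate 2. They were 6.48 to 6.96 for Hmga2 and 1.24 to 2.07 for Igf2bp1.

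With the replicate number as a block, 7111 genes were called (3662 higher, 3449 lower), against 9609 without it, with 12 calls in let-7 processing and 4 among the N6-methyladenosine genes. Dis3l2 (adjusted p = 0.0846), Igf2r, Myc and Mettl16 lost their calls. Lung replicate 1 is alone in its block and adds nothing to the difference. For Hmga1 the difference was 4.86 both with the block and without lung replicate 1. The block also leaves fewer degrees of freedom, and the part of each in the lost calls was not tested. Deviations from the group mean of libraries with the same number correlated over 16387 genes at 0.003 for number 2 and 0.083 for number 3. The 2 tumor libraries deviate from their mean by equal and opposite amounts. These correlations therefore cannot decide whether libraries of the same number are paired, which the labels do not state. TPM keeps no depth, so the counting error of low values, Lin28b above all, is not known.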
